A study of Homo sapiens with 9 samples.

Results

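Transcript levels of 10 genes of the YAP and TEAD pathway were followed in A375 cells given metformin. The genes were taken by symbol from the table of all genes: the coactivators YAP1 and WWTR1, the DNA-binding factor TEAD1, the pathway regulators LATS2, AMOTL2 and AJUBA, and the target genes CCN1, CCN2, ANKRD1 and AXL. All 10 were present among the 37118 genes listed, and all 10 passed the expression filter that left 12394 genes to test. A375 is an established human melanoma cell line, labelled wild type in every sample. Cells received metformin, a biguanide used against type 2 diabetes, at 0, 20 or 40 mM, with 3 libraries per dose and 9 in all. The 0 mM libraries are the controls. The labels give no exposure time.

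YAP1 and TAZ, the protein encoded by WWTR1, are coactivators with no DNA-binding domain of their own, and they reach promoters and enhancers by binding TEAD factors. The Hippo kinases STK3 and STK4 activate LATS1 and LATS2, which phosphorylate YAP1 and TAZ and keep them in the cytoplasm. CCN1, CCN2 and ANKRD1 are widely used readouts of YAP and TAZ activity, LATS2 and AMOTL2 are targets that in turn restrain the pathway, and AXL, a receptor kinase, is known in melanoma as a marker of the dedifferentiated, invasive cell state. Transcript levels do not show where YAP1 and TAZ are in the cell or whether they are phosphorylated, and neither was measured.

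Library totals ran from 65738242 to 75629413 counts. In a principal component analysis of the tested genes the libraries lay in the order of dose along the first component (45.2% of the variance). At 40 mM, replicate 3 was separate from replicates 1 and 2 on component 2 (-22.6 against 17.7 and 15.2) and had the lowest total, so results that rest on it are also given without it. Of 10 melanocyte lineage markers, SOX10, S100B, S100A1, MITF and PAX3 had a mean FPKM (fragments scaled by gene length and library total) of at least 1. The pigment genes TYR, PMEL, MLANA, DCT and TYRP1 were under 1 FPKM in all 9 libraries.

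Promoter sequence was available for 8 of the 10 genes, as 12 windows of 300 bases running from 250 bases before to 50 after a RefSeq start site (GRCh38.p14). The core of the TEAD binding motif, GGAATG on either strand, was found in 7 of the 12 windows, 1 window in each of 7 genes. It occurred in 14.0% of all 35116 promoter windows of this length. CCN2 held it 3 times, all on the gene's own strand and starting 169, 104 and 95 bases before the start site. Only 0.128% of all windows hold 3 or more. ANKRD1 held it 2 times, starting 220 and 128 bases before the start, and 1.37% of all windows hold 2 or more. These windows are shown because CCN2 and ANKRD1 carry the most matches of the 8 genes. Each line gives the 250 bases before the start site, read 5′ to 3′ on the gene's strand, with the TEAD core in capitals. The CCN2 stretch is chr6:131951373-131951622 and that of ANKRD1 is chr10:90921088-90921337, both on the minus strand.
CCN2: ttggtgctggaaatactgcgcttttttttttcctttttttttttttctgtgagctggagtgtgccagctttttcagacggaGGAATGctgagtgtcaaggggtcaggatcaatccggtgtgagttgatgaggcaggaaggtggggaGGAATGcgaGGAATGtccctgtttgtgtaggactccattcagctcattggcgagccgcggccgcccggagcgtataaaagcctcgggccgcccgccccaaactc
ANKRD1: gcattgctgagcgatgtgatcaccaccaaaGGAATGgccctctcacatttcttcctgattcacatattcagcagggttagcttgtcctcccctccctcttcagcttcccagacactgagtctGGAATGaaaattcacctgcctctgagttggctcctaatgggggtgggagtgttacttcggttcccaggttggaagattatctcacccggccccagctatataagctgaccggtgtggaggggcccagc
The ANKRD1 window also holds the AP-1 motif TGANTCA, which reads the same on both strands, starting 195 bases before the start and not overlapping a TEAD core. This motif is in 7.71% of all windows and was found in no other window of the 8 genes.

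The 5 other genes with a match held 1 core each, shown as 30-base stretches on the gene's strand. CATTCC is the core on the opposite strand. They lie at chr11:102110273-102110302 (YAP1, plus strand), chr13:21061560-21061589 (LATS2, minus), chr3:134374499-134374528 (AMOTL2, minus), chr14:22976884-22976913 (AJUBA, minus) and chr19:41226531-41226560 (AXL, plus).
YAP1: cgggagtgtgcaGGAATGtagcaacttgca
LATS2: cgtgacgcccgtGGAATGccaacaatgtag
AMOTL2: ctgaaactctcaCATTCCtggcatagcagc
AJUBA: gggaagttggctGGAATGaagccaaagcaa
AXL: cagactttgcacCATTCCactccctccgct
In LATS2 the core starts 9 bases after the start site, and in AMOTL2 and AJUBA it starts 69 and 59 bases before it. In YAP1 and AXL it lies farther upstream, 162 and 212 bases before the start. AMOTL2, AJUBA and AXL each have 2 annotated start sites, and only the second window of each holds the core. Neither of the 2 WWTR1 windows held it. TEAD1 and CCN1 had no entry among these sequences. A match of 6 letters is a description of the sequence and not evidence of binding, which was not measured.

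**Figure D1:**
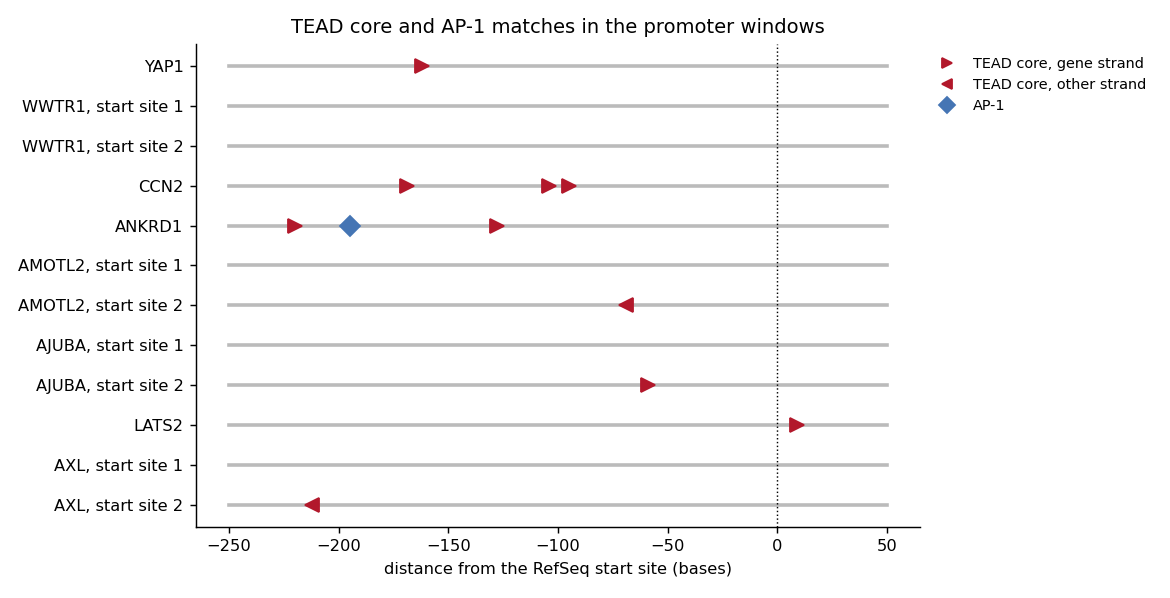
Positions of the TEAD core GGAATG (triangles, pointing right on the gene's strand and left on the opposite strand) and of the AP-1 motif TGANTCA (diamond) in the 12 promoter windows, as distance in bases from the RefSeq start site (dotted line). CCN2 holds 3 cores, ANKRD1 2 cores and the AP-1 motif, and both WWTR1 windows are empty.

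In untreated cells both coactivators stood above TEAD1, though TEAD1 to TEAD4 summed to 31.0 ± 0.413 FPKM, above YAP1. Mean FPKM at 0 mM, which corrects for gene length, was 59.9 ± 3.64 for WWTR1, 32.6 ± 1.91 for AXL and 23.3 ± 0.387 for YAP1 (SD, n = 3). AMOTL2 followed at 18.7 ± 1.38 and CCN1 at 11.9 ± 0.716. TEAD1 (10.8 ± 0.334), CCN2 (9.95 ± 1.09) and AJUBA (9.32 ± 1.14) came next. The range over libraries of CCN2 (9.06 to 11.17) overlapped with those of TEAD1 (10.45 to 11.12) and AJUBA (8.16 to 10.44). It also just reached that of CCN1 (11.16 to 12.59), so the place of CCN2 was not fixed. LATS2 (6.15 ± 0.394) and ANKRD1 (1.10 ± 0.351) were lowest. The main shift in this order with metformin was that of CCN1, which was number 5 of the 10 at 0 and 20 mM and number 2 at 40 mM, where its range overlapped with that of AXL. WWTR1 remained the highest and ANKRD1 the lowest of the 10 at every dose.

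**Figure D2:**
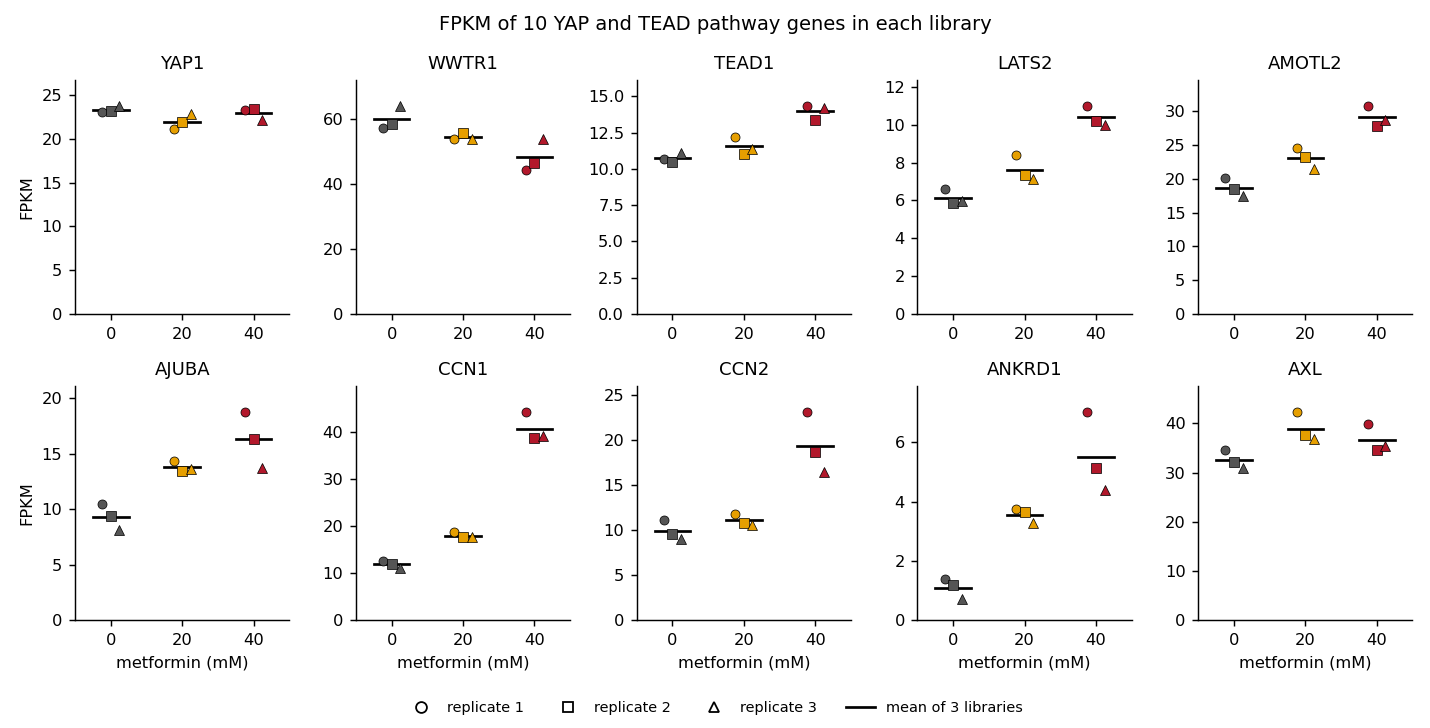
FPKM (vertical axes, each from 0) of each gene in each library at 0, 20 and 40 mM metformin, with a symbol for each replicate number and a bar at the mean of 3 libraries. CCN1, ANKRD1, LATS2 and AMOTL2 step up at each dose without overlap, and YAP1 stays between 21.1 and 23.8 FPKM. The mean of WWTR1 steps down, with its libraries at 20 and 40 mM overlapping.

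The lower dose was compared with the controls first. At 20 mM, 6 of the 10 genes rose and 0 fell in edgeR's quasi-likelihood test (Benjamini-Hochberg adjusted p under 0.05 over all tested genes, here called). At an unadjusted p under 0.05, 1 gene (YAP1) was lower, and DESeq2 and limma called 0 lower. Of all tested genes, 31.6% were called at this dose, 16.3% as higher and 15.2% as lower. The risers were ANKRD1, CCN1, AJUBA, LATS2, AMOTL2 and AXL. The median log2 fold change of the 10 was 0.28, against 0.00 for all tested genes. Without replicate 3 of 40 mM, which enters the shared estimate of spread, WWTR1 was also called lower (-0.14, adjusted p = 0.019).

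At 40 mM against 0 mM, 7 genes rose (CCN1, CCN2, ANKRD1, AJUBA, LATS2, AMOTL2 and TEAD1), WWTR1 fell, and YAP1 and AXL were not called. The background was 56.2% of all tested genes called, 28.8% as higher and 27.4% as lower, with a median log2 fold change of 0.00 against 0.66 for the 10 genes. From 20 to 40 mM, 5 rose (CCN1, CCN2, LATS2, AMOTL2 and TEAD1) and WWTR1 fell, where 29.3% of all genes were called, 14.3% as higher and 15.1% as lower. Without replicate 3 of 40 mM the counts were 7 higher and 1 lower in each of these comparisons, with AJUBA and ANKRD1 added at 40 against 20 mM. The changes at 40 against 0 mM were then 2.42 for ANKRD1, 1.76 for CCN1, 0.87 for AJUBA, 0.75 for LATS2, 0.61 for AMOTL2 and 0.33 for TEAD1 on the log2 scale, and each kept its call. Of all calls at 40 against 20 mM, 48.7% were higher under the scaling used (trimmed mean of M values) and 61.5% when libraries were scaled by their totals. Under no scaling did the median of all genes lie more than 0.0509 from 0 on the log2 scale.

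The coactivators did not move together. YAP1 (ENSG00000137693, chromosome 11, 102110447 to 102233424, plus strand) was at 23.1, 23.1 and 23.8 FPKM in the 3 libraries in the controls, at 21.1, 21.9 and 22.8 with 20 mM, and at 23.3, 23.4 and 22.2 with 40 mM. The libraries at 20 mM all lay under those at 0 mM, and those at 40 mM overlapped with both. The log2 fold change of YAP1 was -0.09 ± 0.04 (SE) at 20 mM (adjusted p = 0.118) and -0.05 ± 0.04 at 40 mM (adjusted p = 0.278). The 95% interval at 40 mM ran from -0.15 to 0.04.

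WWTR1 (ENSG00000018408, chromosome 3, 149517235 to 149736714, minus strand), which encodes TAZ, was at 57.3, 58.4 and 64.1 FPKM in the controls, at 53.8, 55.7 and 53.95 with 20 mM, and at 44.4, 46.6 and 53.9 with 40 mM. Each treated library was under all 3 controls, and replicate 3 of 40 mM was the highest of its dose, within the range at 20 mM. WWTR1 fell at 40 mM by 0.35 ± 0.07 on the log2 scale (adjusted p = 0.0014), and the change was -0.43 ± 0.05 without replicate 3 of 40 mM. At 20 mM it was -0.14 ± 0.07 (adjusted p = 0.146). The step from 20 to 40 mM was called (-0.21 ± 0.07, adjusted p = 0.0444), but 14 of 20 alternatives lost that call, with adjusted p from 0.000962 to 0.142 over the 20, and it was lost when any library other than replicate 3 of 0 mM and replicate 3 of 40 mM was left out. In all 20 the change was negative, between -0.29 and -0.15. An antisense gene, WWTR1-AS1, overlaps WWTR1 but had a mean count of 69.6 against 37190.

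The TEAD factors are the DNA-binding partners of YAP1 and TAZ. TEAD1 (ENSG00000187079, chromosome 11, 12674421 to 12944737, plus strand) was at 10.7, 10.5 and 11.1 FPKM in the controls, at 12.2, 11.1 and 11.4 with 20 mM, and at 14.4, 13.4 and 14.2 with 40 mM. The 40 mM libraries were above all others, and those at 0 and 20 mM touched. TEAD1 rose by 0.34 ± 0.05 at 40 against 0 mM (adjusted p = 0.000168) and by 0.24 ± 0.05 from 20 to 40 mM (adjusted p = 0.00481). At 20 mM the change was 0.10 ± 0.05 (adjusted p = 0.159). So WWTR1 and TEAD1 moved in opposite directions at 40 mM while YAP1 was not called.

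Its paralogs gave the rest of the TEAD level. TEAD4 was the most abundant, at a mean of 15.2, 14.6 and 15.7 FPKM at 0, 20 and 40 mM, and was not called at either dose (0.01 ± 0.08 at 40 mM, adjusted p = 0.914). TEAD3 rose by 0.43 ± 0.10 at 20 mM (adjusted p = 0.00717) and by 0.60 ± 0.10 at 40 mM (adjusted p = 0.000358). TEAD2 was at 0.35 ± 0.21 at 40 mM (adjusted p = 0.169), with replicate 3 of that dose at 3.93 FPKM against 2.29 and 2.52 in the others. VGLL4, which competes with YAP1 for TEAD binding, was at -0.03 ± 0.05 at 20 mM (adjusted p = 0.669) and rose by 0.38 ± 0.05 at 40 mM (adjusted p = 9.23e-05). In the list of 10 nuclear factors, which holds YAP1, WWTR1 and TEAD1, 7 were tested, 1 rose at 20 mM, and 3 rose and 1 fell at 40 mM. These counts, 1 and 4 of 7, lie under or near the 31.6% and 56.2% of all tested genes called.

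The regulators LATS2, AMOTL2 and AJUBA all rose at both doses. LATS2 (ENSG00000150457, chromosome 13, 20973036 to 21061586, minus strand), a kinase that phosphorylates YAP1 and TAZ, was at 6.59, 5.86 and 5.99 FPKM in the controls, at 8.41, 7.33 and 7.10 with 20 mM, and at 11.0, 10.2 and 9.99 with 40 mM. The 3 doses did not overlap. LATS2 rose by 0.31 ± 0.07 at 20 mM (adjusted p = 0.0099), by 0.72 ± 0.07 at 40 mM (adjusted p = 1.41e-05) and by 0.42 ± 0.07 between these doses (adjusted p = 0.00225). Its paralog LATS1 was at a mean of 4.91, 4.91 and 5.02 FPKM and was not called (0.00 ± 0.05 at 40 mM, adjusted p = 0.983).

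AMOTL2 (ENSG00000114019, chromosome 3, 134355874 to 134374594, minus strand), an angiomotin-family scaffold that binds YAP1, was at 20.2, 18.5 and 17.4 FPKM in the controls, at 24.6, 23.2 and 21.5 with 20 mM, and at 30.8, 27.9 and 28.7 with 40 mM. It stepped up without overlap, by the same amount at each step: 0.30 ± 0.07 from 0 to 20 mM (adjusted p = 0.00701) and 0.30 ± 0.07 from 20 to 40 mM (adjusted p = 0.00739). At 40 against 0 mM AMOTL2 rose by 0.60 ± 0.07 (adjusted p = 2.76e-05). AMOT, another member of the family, went the other way and fell by 0.68 ± 0.05 at 20 mM and by 0.75 ± 0.05 at 40 mM (adjusted p = 9e-06 and 1.29e-06).

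AJUBA (ENSG00000129474, chromosome 14, 22971177 to 22982551, minus strand), a LIM-domain protein that binds and holds back the LATS kinases, was at 10.4, 9.37 and 8.16 FPKM in the controls, at 14.3, 13.4 and 13.6 with 20 mM, and at 18.7, 16.4 and 13.8 with 40 mM. All treated libraries were above all controls, and replicate 3 of 40 mM lay within the range at 20 mM. AJUBA rose by 0.56 ± 0.11 at 20 mM (adjusted p = 0.00313) and by 0.77 ± 0.11 at 40 mM (adjusted p = 0.00014). From 20 to 40 mM the change was 0.21 ± 0.11 (adjusted p = 0.172), and 0.31 ± 0.09 without replicate 3 of 40 mM (adjusted p = 0.0221). LIMD1, a related LIM protein with the same role, rose by 0.35 ± 0.07 and 0.62 ± 0.07 at 20 and 40 mM (adjusted p = 0.00363 and 2.86e-05).

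CCN1 showed the most firmly measured rise of the 10 genes. CCN1 (ENSG00000142871, chromosome 1, 85580761 to 85583950, plus strand) encodes a secreted matrix-associated protein that signals through integrins. It was at 12.6, 11.9 and 11.2 FPKM in the controls, at 18.7, 17.6 and 17.6 with 20 mM, and at 44.1, 38.7 and 39.03 with 40 mM. Every library of a dose was above every library of the dose before it. CCN1 rose 1.51-fold at 20 mM (0.59 ± 0.06, adjusted p = 8.74e-05) and 3.34-fold at 40 mM (1.74 ± 0.07, adjusted p = 2.39e-08). Its second step, from 20 to 40 mM, was 1.14 ± 0.06 (adjusted p = 9.17e-06).

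CCN2 (ENSG00000118523, chromosome 6, 131948176 to 131951372, minus strand), the connective tissue growth factor of the same family, was at 11.2, 9.63 and 9.06 FPKM in the controls, at 11.9, 10.8 and 10.6 with 20 mM, and at 23.1, 18.7 and 16.4 with 40 mM. The 0 and 20 mM libraries overlapped, and all 40 mM libraries were above both. At 20 mM the change was 0.15 ± 0.12 (adjusted p = 0.359, 95% interval -0.11 to 0.41). At 40 mM CCN2 rose 1.90-fold (0.93 ± 0.12, adjusted p = 6.84e-05), and by 1.03 ± 0.11 without replicate 3 of 40 mM.

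ANKRD1 (ENSG00000148677, chromosome 10, 90912096 to 90921087, minus strand), which encodes an ankyrin-repeat protein of nucleus and sarcomere, had the lowest levels and the widest errors. It was at 1.41, 1.18 and 0.720 FPKM in the controls, at 3.74, 3.64 and 3.28 with 20 mM, and at 7.01, 5.13 and 4.39 with 40 mM. The counts behind these values were 213, 175 and 107 in the controls, 558, 524 and 487 with 20 mM, and 1062, 776 and 582 with 40 mM. The doses did not overlap. ANKRD1 rose 3.21-fold at 20 mM (1.68 ± 0.24, adjusted p = 0.000509) and 4.86-fold at 40 mM (2.28 ± 0.24, adjusted p = 1.88e-05). The second step was 0.60 ± 0.23 (adjusted p = 0.0723). It was called in 7 of 19 alternatives, among them 0.60 with replicate 3 of 0 mM left out (adjusted p = 0.0298) and 0.74 ± 0.23 with replicate 3 of 40 mM left out (adjusted p = 0.0333).

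AXL (ENSG00000167601, chromosome 19, 41219223 to 41261766, plus strand), a receptor tyrosine kinase of the TAM family, was at 34.6, 32.3 and 30.9 FPKM in the controls, at 42.3, 37.6 and 36.9 with 20 mM, and at 39.95, 34.6 and 35.5 with 40 mM. All 20 mM libraries were above the controls, and the 40 mM libraries overlapped with both other doses. AXL rose by 0.25 ± 0.07 at 20 mM (adjusted p = 0.0209). That call was lost without replicate 2 or replicate 3 of 0 mM (adjusted p = 0.0709 and 0.0782) and without replicate 1 of 20 mM (adjusted p = 0.083). At 40 mM the change was 0.14 ± 0.07 (adjusted p = 0.126, 95% interval -0.02 to 0.29). It was called when libraries were scaled by their totals (0.19, adjusted p = 0.0429) and with the replicate number as a block (0.14, adjusted p = 0.0105). From 20 to 40 mM AXL was at -0.12 ± 0.07 (adjusted p = 0.248), and was called lower with that block (adjusted p = 0.038). The replicate numbers did not pair the libraries by the rule given below.

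The shape of the response over dose was examined gene by gene, and no test compared it between genes. The difference between the second and the first step of 20 mM was tested as a contrast of its own, in which 6.83% of all genes were called, 2.73% as higher and 4.11% as lower. Of the 10 genes 1 was called, which is near that share. It was CCN1, with a second step larger than the first by 0.55 ± 0.11 on the log2 scale (adjusted p = 0.0168). This call was lost when replicate 2 or replicate 3 of 20 mM was left out (adjusted p = 0.0975 in each case). CCN2 had a difference of the same size, 0.62 ± 0.21, with a wider error (adjusted p = 0.102), and was called without replicate 3 of 40 mM (adjusted p = 0.0219). ANKRD1 went the opposite way, with a smaller second step (-1.08 ± 0.39, adjusted p = 0.129), as did AXL (-0.37 ± 0.12, adjusted p = 0.103). These are the 2 genes lower at an unadjusted p under 0.05, where edgeR called 0 and DESeq2 2. AMOTL2 was at 0.00 ± 0.12 (adjusted p = 0.991).

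**Figure D3:**
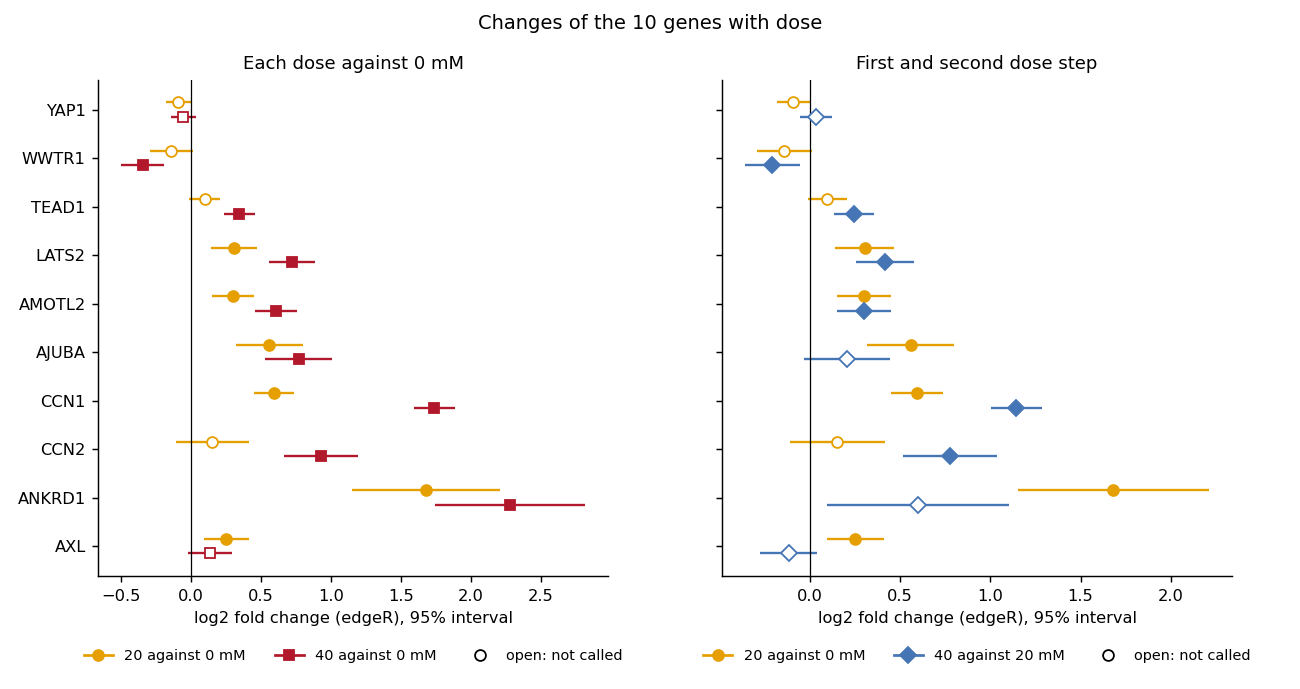
Log2 fold changes of the 10 genes from edgeR (horizontal axes) with 95% intervals, for each dose against 0 mM (left) and for the first and second dose step (right). Filled symbols were called and open ones were not. The second step of CCN1 (1.14) lies right of its first (0.59), and YAP1 stays near 0 throughout.

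Ratios within a library compare paralogs without the scaling between libraries. The ratio of CCN1 to CCN2 was 1.20 ± 0.061 at 0 mM, 1.62 ± 0.041 at 20 mM and 2.12 ± 0.236 at 40 mM (SD, n = 3), with no overlap between any doses. LATS2 over LATS1 went from 1.26 ± 0.118 to 1.55 ± 0.083 and 2.07 ± 0.098, also without overlap. WWTR1 over YAP1 was 2.57 ± 0.113, 2.49 ± 0.101 and 2.11 ± 0.281, and at 40 mM replicate 3 (2.43) stood above the other libraries (1.90 and 1.99). The summed FPKM of YAP1 and WWTR1 went from 83.2 ± 4.02 to 76.4 ± 1.36 and 71.2 ± 4.31. The sum over TEAD1 to TEAD4 went from 31.0 ± 0.413 to 32.2 ± 1.77 and 36.9 ± 2.51. Unlike the ratios, these sums depend on the FPKM scaling between libraries. At 40 against 0 mM the coactivator sum was lower and the TEAD sum higher, each without overlap (adjusted p = 0.18 each, exact permutation test). Of the coactivators only WWTR1 was called at 40 mM.

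The make-up of the TEAD sum was followed as well. The share of TEAD3 was 8.99% ± 0.380 at 0 mM, 11.7% ± 0.434 at 20 mM and 11.7% ± 0.908 at 40 mM, and that of TEAD4 went from 49.1% ± 3.17 to 45.4% ± 1.15 and 42.6% ± 1.66. With 3 libraries a side, the exact two-sided permutation test over libraries cannot go below p = 0.1. That value was reached at 40 against 0 mM by the ratio of CCN1 to CCN2, LATS2 over LATS1, WWTR1 over YAP1, both sums and the shares of TEAD3 and TEAD4. Adjusted over the 27 tests of this kind, each is p = 0.18 in the exact permutation test.

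**Figure D4:**
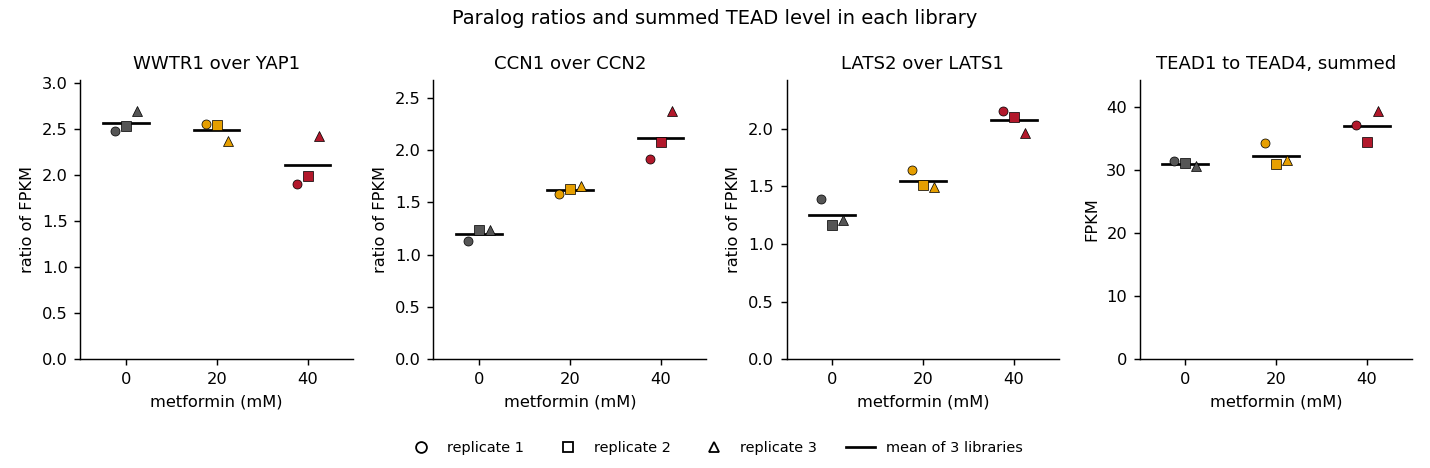
Ratios of FPKM within each library for WWTR1 over YAP1, CCN1 over CCN2 and LATS2 over LATS1, and the summed FPKM of TEAD1 to TEAD4, at 0, 20 and 40 mM metformin (vertical axes from 0), with a symbol for each replicate number and a bar at the mean. CCN1 over CCN2 climbs from a mean of 1.20 to 2.12 without overlap between doses.

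The Hippo kinase core holds LATS2 and 6 other genes, all tested. Of the 7, 4 rose at 20 mM (16.3% of all tested genes were called higher) and 4 at 40 mM (28.8%), LATS2 among them, and the other 3 were not called at either dose. The count called in either direction at 40 mM, 4 of 7, was near the background of 56.2%. MOB1B, an activating subunit of the LATS kinases, rose by 0.38 ± 0.06 at 20 mM and by 0.45 ± 0.06 at 40 mM (adjusted p = 0.00124 and 0.00012). STK4, the kinase that acts on LATS, rose by 0.22 ± 0.04 and 0.30 ± 0.04 (adjusted p = 0.00214 and 8.44e-05). The scaffold SAV1 rose by 0.22 ± 0.06 and 0.25 ± 0.06 (adjusted p = 0.0226 and 0.00571), and its call at 20 mM was lost when replicate 2 or 3 of 0 mM or replicate 1 or 2 of 20 mM was left out (adjusted p up to 0.0891). At 40 mM the median log2 fold change of the kinase core was 0.25 with LATS2 and 0.14 for the 6 other genes, against 0.00 for all tested genes.

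Of 26 upstream regulators listed, 23 were tested, with 7 higher and 5 lower at 20 mM and 11 higher and 5 lower at 40 mM. Calls in both directions are also what all tested genes showed, at 16.3% higher and 15.2% lower for 20 mM and 28.8% and 27.4% for 40 mM. Of the 23, 11 were not called at 20 mM and 7 at 40 mM, where 31.6% and 56.2% of all tested genes were called. The 5 lower were 2 at each dose with the filter at 5 FPKM, where fewer genes were tested. The 7 higher at 20 mM were 4 at a threshold of 0.01. AMOTL2 and AJUBA belong to this list. Those that fell included WWC3, a relative of the LATS activator KIBRA (-0.63 ± 0.09 and -0.89 ± 0.09, adjusted p = 0.00037 and 9.73e-06), and FRMD6, a cortical FERM protein that acts with the Hippo kinases (-0.51 ± 0.05 and -0.59 ± 0.05, adjusted p = 3e-05 and 2.91e-06). From 20 to 40 mM AMOT and FRMD6 were not called (-0.06 ± 0.05 and -0.07 ± 0.05), and their second steps differed from the first (adjusted p = 0.00411 and 0.0126). The median of the list was 0.06 at 40 mM.

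A 22-gene signature of YAP and TAZ targets, derived from human tumours, holds CCN1, CCN2, ANKRD1, AMOTL2, LATS2 and AXL. Of its 19 tested genes 7 rose and 2 fell at 20 mM, and 13 rose and 2 fell at 40 mM. Of the 13 outside the 10 genes, 2 rose and 2 fell at 20 mM and 8 rose and 2 fell at 40 mM, with median log2 fold changes of 0.10 and 0.19. The 4 of 13 called at 20 mM are near the background of 31.6%, and at 40 mM the background was 28.8% higher and 27.4% lower. NUAK2, a kinase of the AMPK-related family, was at 0.24 ± 0.18 at 20 mM (adjusted p = 0.36) and rose by 0.99 ± 0.18 at 40 mM (adjusted p = 0.000883). F3, the coagulation initiator tissue factor, gave 0.18 ± 0.17 (adjusted p = 0.449) and then rose by 0.90 ± 0.17 (adjusted p = 0.000853). Both were low, at a mean FPKM of 1.19 and 1.25 over the 9 libraries. At 0 mM their means were 0.844 and 0.927, under the filter of 1 FPKM, so they passed it through their treated libraries. A gene as low that did not rise would not have been tested. Their order of values, near 0 at 20 mM and higher at 40 mM as for CCN2, is therefore a description only.

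IGFBP3, which binds insulin-like growth factors, had another shape. It rose by 0.90 ± 0.07 at 20 mM and was no higher at 40 mM (0.90 ± 0.07, adjusted p = 1.3e-05 and 3.22e-06), and the difference between its steps was called (-0.90 ± 0.13, adjusted p = 0.00254). NT5E, the surface nucleotidase CD73, fell by 0.57 ± 0.05 and 0.92 ± 0.05 (adjusted p = 1.52e-05 and 1.71e-07). FJX1 was the other member that fell (-0.40 ± 0.10 and -0.35 ± 0.10).

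**Figure D5:**
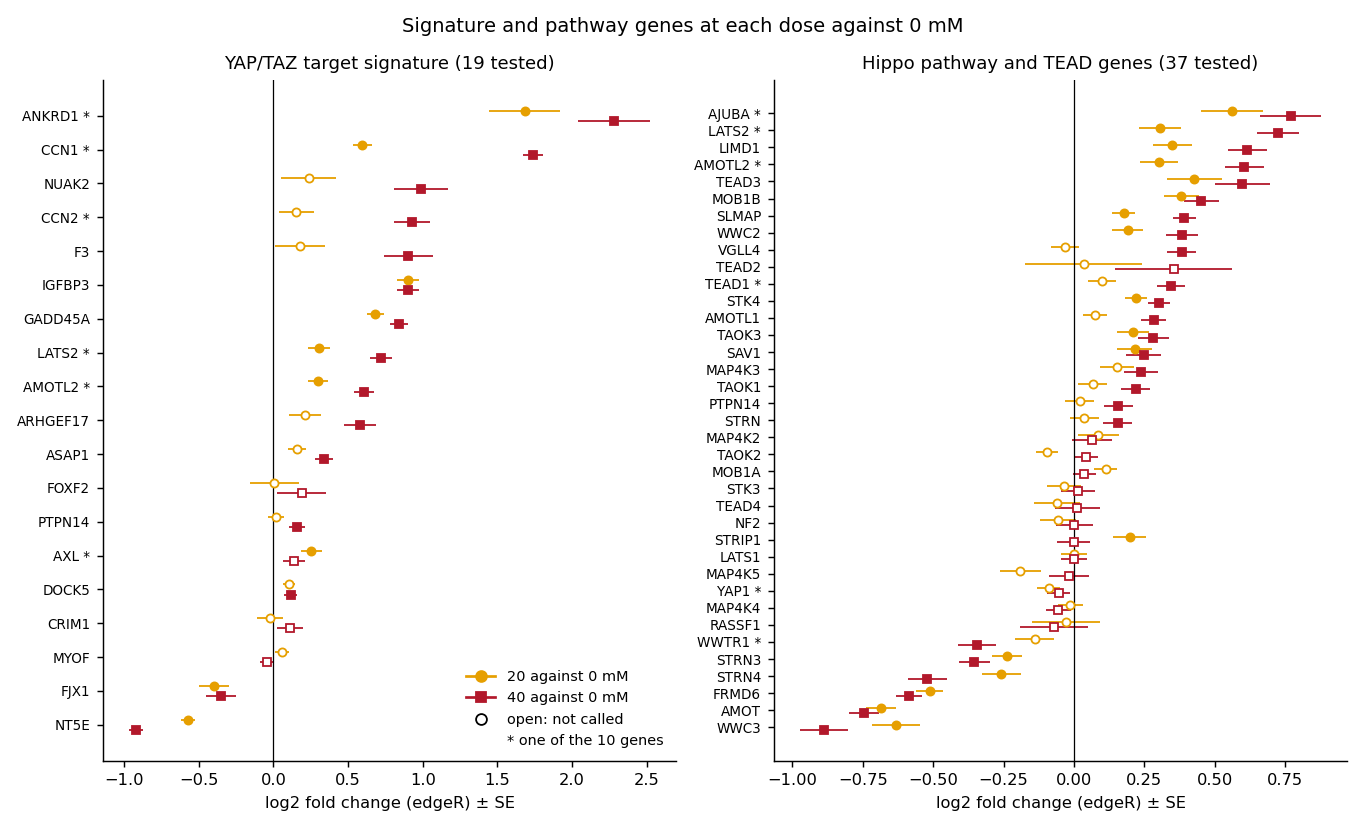
Log2 fold changes ± SE (horizontal axes) at 20 and 40 mM against 0 mM for the 19 tested genes of the YAP and TAZ target signature (left) and for 37 tested genes of the Hippo pathway and TEAD factors (right), ordered by the change at 40 mM. Filled symbols were called, and asterisks mark the 10 genes. ANKRD1 and CCN1 lead the signature and NT5E lies at its lower end (-0.92).

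SRF and its cofactor MRTF act on many cytoskeletal genes and share several targets with YAP and TAZ, CCN1 and CCN2 among them. Of 18 listed SRF and MRTF targets 14 were tested, and 1 rose and 3 fell at 20 mM, against 4 higher and 3 lower at 40 mM. Called in either direction, these are 4 and 7 of 14, near or under the 31.6% and 56.2% of all tested genes. SRF itself rose by 0.24 ± 0.04 and 0.40 ± 0.04 (adjusted p = 0.00225 and 2.43e-05). Cytoplasmic actins fell: ACTB by 0.33 ± 0.05 and 0.47 ± 0.05 (adjusted p = 0.00123 and 3.55e-05) and ACTG1 by 0.38 ± 0.09 and 0.55 ± 0.09 (adjusted p = 0.00773 and 0.00035). VCL, the adhesion protein vinculin, fell by 0.57 ± 0.05 at 40 mM (adjusted p = 4.15e-06). The 4 rises at 40 mM were 2 when replicate 2 or 3 of 0 mM or replicate 2 of 20 mM was left out.

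In the CCN family 4 of 6 genes were tested and all 4 rose at 40 mM, where 28.8% of all tested genes were called higher. CCN3, a relative of CCN1 and CCN2, was at 0.27 ± 0.12 at 20 mM (adjusted p = 0.102) and rose by 1.17 ± 0.12 at 40 mM (adjusted p = 1.36e-05). CCN6 was low, at a mean of 1.02 FPKM, and passed the filter through its treated libraries, as its mean at 0 mM was 0.686 FPKM. It rose by 0.84 ± 0.27 at 40 mM (adjusted p = 0.0214). That call was lost with no filter (adjusted p = 0.0674), without replicate 3 of 0 mM (adjusted p = 0.0518) and without replicate 2 of 40 mM (adjusted p = 0.078). Of the TAM receptors and ligands 3 of 5 were tested. AXL was not called at 40 mM, and the ligand PROS1 was (0.28 ± 0.11, adjusted p = 0.0404), and that call was lost when replicate 1 or 2 of 0 mM or replicate 1 or 2 of 40 mM was left out (adjusted p up to 0.13). MERTK and the AXL ligand GAS6 had a mean under 1 FPKM and were not tested.

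Markers of other cell types were checked beside these rises. The summed FPKM of the 13 measured was 12.1 to 13.6 at 0 mM, 18.8 to 21.6 at 20 mM and 26.4 to 34.4 at 40 mM, so it moved with dose. It was carried by CD68 (mean 3.90, 11.9 and 17.4 FPKM), KRT14 (7.33, 6.60 and 8.64) and PDGFRB (1.12, 1.23 and 2.02), and the other 10 were under 1 FPKM in every library. PTPRC, CD3E and ALB, which define leukocytes, T cells and hepatocytes, were at 0 in 8 of the 9 libraries each and under 0.02 FPKM in the other. Other low markers had higher means at 40 than at 0 mM, among them CDH5 (0.396 against 0.0961 FPKM), PECAM1 (0.228 against 0.124) and VWF (0.0993 against 0.0489). EPCAM (0.0714 against 0.0797) and COL3A1 (0.00386 against 0.00993) had lower ones. With no filter, 4 markers of this list were called higher at 40 against 0 mM, and 2 with the filter. CD68 rose by 1.60 ± 0.15 and 2.12 ± 0.15 (adjusted p = 3.3e-05 and 1.29e-06), and PDGFRB by 0.82 ± 0.11 at 40 mM (adjusted p = 0.000121). The summed melanocyte markers were 114.7 to 140.9 FPKM at 0 mM, 116.5 to 126.2 at 20 mM and 90.3 to 130.3 at 40 mM. Of these S100B fell by 0.80 ± 0.15 (adjusted p = 0.000804) and PAX3 rose by 0.32 ± 0.09 (adjusted p = 0.0112) at 40 mM. The PAX3 call was lost at a threshold of 0.01. SOX10, the largest part of the sum, was at 70.7, 78.0 and 108 FPKM in replicates 1 to 3 of 40 mM. Its change against 0 mM was -0.32 ± 0.13 (adjusted p = 0.0566). Without replicate 3 of 40 mM, 2 of the 5 tested markers were called lower and 1 higher. With all 9 libraries it was 1 each, beside 27.4% and 28.8% of all tested genes. The part of either marker list in the changes of the 10 genes was not tested, and in bulk RNA fewer cells of a kind and less RNA per cell cannot be told apart.

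Each of 5 genes was compared with the 12393 other tested genes by the Pearson correlation of scaled log2 counts (CPM) over the 9 libraries. These libraries fall into 3 doses, so a high value mostly reflects a shared order of the doses. CCN1 was most like WASHC2A (r = 0.995), KIF3C (0.994) and NCOA3 (0.994). CCN2 was most like F3 (0.995), the target gene of the signature, followed by the laminin subunit LAMB3 (0.987) and the collagen COL12A1 (0.987). AMOTL2 was most like the ferritin heavy chain FTH1 (0.991), AC005831 (0.991) and the ephrin receptor EPHA2 (0.988). Genes with small changes had looser neighbours: TCOF1 (0.924) and HMGA2 (0.923) for AXL, and CDK2AP1 (0.948), CACYBPP2 (0.920) and FAM3C2 (0.920) for YAP1.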

How the data were processed

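RNA from 9 A375 libraries, 3 each at 0, 20 and 40 mM metformin, was captured by poly(A) and made into strand-specific libraries, per the labels' protocols. Whole-number read counts per gene, as deposited, come from 1 table of the whole series. FPKM values by the authors stand beside them in that table, per the file headers. The submitters' processing notes list StringTie 2.1.6 without its role. Sources used here do not name the aligner, annotation, genome build or strand setting of the counting. Gene positions are those of the table. Of the genes that overlap the 10, AP001527 over YAP1 had the highest mean count (183, against 11800).

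Genes that averaged at least 1 FPKM were tested with edgeR 4.0.16 (quasi-likelihood test, TMM scaling, all 9 libraries in 1 fit, R 4.3.3), with Benjamini-Hochberg adjustment over all 12394 genes and a threshold of 0.05. Changes are log2 fold changes, the SE is the change over the square root of its F, levels are mean FPKM ± SD with n = 3, and sums and ratios of FPKM were compared by exact permutation. The scripts were tested on simulated data. At these depths, 65738242 to 75629413 counts, the spread between libraries, as given by each SE, sets the precision, and ANKRD1 rests on the fewest counts (107 to 1062 a library). The labels do not say that replicates came from separate cultures, so p-values cover only the differences among the libraries sequenced, possibly technical ones.

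The 10 genes and the 9 other gene lists were chosen with earlier results of these data known. Of each other list, the rule names up to 4 genes called at 40 against 0 mM with the largest change, and for 5 of the 10 genes the 3 most correlated genes. Of these, 1 gene is not reported here. TEAD2, TEAD4, LATS1, KRT14, FJX1 and SOX10 were named outside it, after their values were seen. Alternatives were no filter, a filter at 5 FPKM, median-of-ratios and total-count scaling, DESeq2 1.42.0, limma 3.58.1 on log2(FPKM + 1) and log2(FPKM + 0.1), the 6 libraries compared alone, a threshold of 0.01, a replicate block, the shorter motif GGAAT, and leaving out each library. Promoter sequences are from RefSeq (GRCh38.p14).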

Additional observations from a re-analysis of the deposited data

How the results depend on the processing

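Of 786 values of the 10 genes over 40 gene and comparison pairs and up to 20 alternatives, 732 kept direction and side of the threshold, 23 lost a call, 31 gained 1 and 0 reversed. Of the lost calls 14 were WWTR1 at 40 against 20 mM, and the others were AXL at 20 mM (5) and the CCN1 difference between steps (4). At 40 against 0 mM no alternative changed a call of the 10 genes other than AXL, which was called under total-count scaling and under the block, with and without replicate 3 of 40 mM. ANKRD1 gives no value with the filter at 5 FPKM.

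Over all tested genes, 3911, 6962 and 3637 calls (20 against 0, 40 against 0 and 40 against 20 mM) became 2517, 4245 and 2367 with the filter at 5 FPKM, where fewer genes were tested, and a threshold of 0.01 gave 2167 and 1858 for the first and the last. Leaving out each library in turn gave 2731 to 4966, 6049 to 7135 and 2408 to 4065. Of the 10 genes, the count called lower at 20 mM went from 0 to 1 with the 6 libraries alone, and was 0 to 1 over the left-out libraries. The count called lower at 40 against 20 mM went from 1 to 0 with no filter, the filter at 5 FPKM, total-count scaling, both limma settings, the 6 libraries alone and a threshold of 0.01, and was 0 to 1 over the left-out libraries. The count with a larger second step went from 1 to 0 with no filter and with a threshold of 0.01, to 2 with DESeq2, and was 0 to 2 over the left-out libraries. The count with a smaller second step went from 0 to 2 with DESeq2. In the signature, a threshold of 0.01 gave 1 lower at 20 mM, 1 lower at 40 mM and 5 higher at 40 against 20 mM, and the count lower at 40 mM was 1 to 2 over the left-out libraries. The cause of these differences was not tested. The shorter motif GGAAT was also found in 7 genes, in 8 of the 12 windows, beside 36.4% of all windows.

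The libraries share replicate numbers across doses, but the numbers do not pair them by the rule used. Deviations from the dose means correlated at -0.101 to 0.186 over 9 same-numbered pairs and at -0.191 to 0.124 in other pairs. The highest value, 0.186, was between replicate 1 of 0 mM and replicate 1 of 40 mM. For 1 of 9 libraries, the same-numbered library was the best correlated within both of the other doses. A fit with the replicate block called 2 of the 10 genes lower at 40 against 20 mM, 2 with a larger and 2 with a smaller second step, and 3 signature genes lower at 40 against 20 mM. The block without replicate 3 of 40 mM, added after seeing the data, gave the same 2, 2, 2 and 3, and 2 of the 10 genes lower at 20 mM.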

Other observations

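Within each dose, replicate 1 was the highest library for most of the 10 genes: for 7 of 10 at 0 mM, 8 of 10 at 20 mM and 8 of 10 at 40 mM, in FPKM. Replicate 3 was the lowest for 6, 6 and 5 of the 10. With the replicate number as a block, the SE of AXL at 40 against 0 mM went from 0.07 to 0.04. What the replicate numbers stand for is not given in the labels, and this order was noticed in the data and not tested.

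GADD45A, a stress-induced regulator of growth arrest and a member of the target signature outside the naming rule, was singled out after its values were seen. It was at 15.6, 25.2 and 28.7 mean FPKM at 0, 20 and 40 mM and rose by 0.68 ± 0.06 and 0.84 ± 0.06 (adjusted p = 1.83e-05 and 1.15e-06). The difference between its steps was called (-0.52 ± 0.10, adjusted p = 0.0131), in the direction opposite to that of CCN1.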
